A study of Mus musculus with 6 samples.

Results

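The genes described here are 10 regulators of the G1 phase of the cell cycle: the inhibitors Cdkn1a, Cdkn1b, Cdkn2c and Cdkn2d, the D-type cyclins Ccnd1, Ccnd2 and Ccnd3, and the kinases Cdk2, Cdk4 and Cdk6. They were taken by symbol, 10 of 12393 named genes, with every probe set that the platform annotation gives to that symbol alone. This gave 22 of 22690 probe sets, of which 19 exceeded the signal floor on at least 1 array and 16 on all 6. The arrays were hybridised with RNA of Ba/F3, a mouse cell line labelled as pro-B cells whose growth depends on interleukin 3 (IL3) or on an active kinase in its place. There were 3 lines, each with a pMSCV retroviral vector: ETV6-PDGFRB, FIP1L1-PDGFRA and an empty vector. The first 2 carry fusion genes for constantly active PDGF receptor kinases and had been selected to grow without IL3, while the empty-vector line was grown with IL3. Cells of every line were sampled without drug or after 4 h in 100 nM Glivec (imatinib, an inhibitor of these kinases), in medium with 10% serum, with 1 array per line and treatment. Whether a line is 1 clone or a pool is not given in the sources used here.

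In G1, D-type cyclins bind CDK4 and CDK6, and cyclin E binds CDK2. Together these kinases phosphorylate the retinoblastoma protein and its relatives, which frees E2F factors to switch on genes of DNA replication. INK4 inhibitors, such as p18 (Cdkn2c) and p19 (Cdkn2d), bind CDK4 and CDK6, while CIP/KIP inhibitors, such as p21 (Cdkn1a) and p27 (Cdkn1b), bind cyclin-CDK complexes and chiefly restrain CDK2. In blood cells, growth factor receptors are known to act on G1 through D-type cyclins and p27, and FOXO factors, held inactive by PI3K signalling, are known activators of Cdkn1b.

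All values are probe set signals on a linear scale, scaled by the authors to a common level on every array. A signal below 20.1, the 50th percentile of the arrays, was set to that floor, and the probe set with the largest average log2 signal stands for its gene. A single array has no replicate error, so differences within a line were counted past 2-fold with no test. Where the order of the 6 arrays is given, it is a description. The share of all genes with the same order was not counted. In the IL3 pair the log2 ratios of the middle 95% of genes lay between -0.38 and 0.42. A limma fit over all 6 arrays took both fusion lines as repeats, with the line as a block, and treated any difference within the IL3 pair as spread. The words rose and fell are kept for an adjusted p under 0.05 in that fit (Benjamini-Hochberg over 6808 genes). Its p-values and standard errors (SE) rest on the gap between the responses of the fusion lines and on the difference within the IL3 pair. They also rest on a spread pooled over all genes, which weighs more (3.10 prior against 2 residual degrees of freedom). The SE of a gene is thus not its own spread alone. These p-values do not measure spread between repeat cultures, of which there are none. Of the 11 pro-B and B markers with a probe set, 2 exceeded the floor on all arrays, Cd79a (37.2 to 63.0) and Cd79b (45.3 to 121), while Pax5, Ebf1, Rag1, Rag2 and Il7r were below it on every array. The haematopoietic marker Ptprc ranged from 606 to 892 and the shared receptor chain gene Csf2rb from 1193 to 1616. In these RNA extracts, fewer cells expressing a gene and less of its RNA per cell cannot be told apart.

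The CIP/KIP inhibitors moved in opposite directions: with imatinib in the fusion lines, Cdkn1b rose 2.34-fold and Cdkn1a fell 2.14-fold (limma). The promoter windows of both are shown because of this contrast. They hold 250 bases before and 50 after the RefSeq start on GRCm38.p6, are given in the direction of transcription, and carry in capitals the GC box GGGCGG and the CCAAT box, searched on both strands. The first is chr6:134920151-134920450 on the plus strand and the second chr17:29093519-29093818 on the plus strand, the downstream of 2 RefSeq starts of Cdkn1a.
Cdkn1b: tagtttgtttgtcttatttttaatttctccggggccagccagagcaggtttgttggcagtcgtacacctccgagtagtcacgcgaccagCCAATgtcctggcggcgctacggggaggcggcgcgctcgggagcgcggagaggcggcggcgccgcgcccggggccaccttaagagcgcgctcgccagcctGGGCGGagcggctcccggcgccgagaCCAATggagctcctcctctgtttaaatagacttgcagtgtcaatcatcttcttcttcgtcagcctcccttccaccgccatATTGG
Cdkn1a: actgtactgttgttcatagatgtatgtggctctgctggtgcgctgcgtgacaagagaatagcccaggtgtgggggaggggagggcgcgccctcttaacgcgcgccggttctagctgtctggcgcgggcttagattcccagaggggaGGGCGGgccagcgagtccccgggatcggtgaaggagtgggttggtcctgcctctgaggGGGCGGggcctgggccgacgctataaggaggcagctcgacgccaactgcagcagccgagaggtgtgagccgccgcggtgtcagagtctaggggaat
The Cdkn1b window holds 1 GC box and 3 CCAAT boxes, and the Cdkn1a window 2 GC boxes. Over 32851 windows of the same length, 35.7% hold a GC box and 37.4% a CCAAT box, so these matches are common. The searches for a STAT motif (TTCNNNGAA) and a FOXO motif (GTAAACA) gave no match in either window, which says only that these letters are not in it. Those motifs stand in 8.30% and 3.65% of all windows.

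Cdkn1b encodes p27, which restrains CDK2. In ETV6-PDGFRB cells its signal was 69.3 untreated and 159.9 treated, in FIP1L1-PDGFRA cells 42.6 and 101, and in the IL3 pair 40.2 and 26.0. Both treated fusion arrays lay above all 4 others, and the treated IL3 array was the lowest. The ratio was 2.31-fold higher and 2.37-fold higher in the fusion lines, and 47 of 6852 and 59 of 6743 genes had higher ratios there. The log2 change in the limma fit was 1.23 ± 0.21 (SE, adjusted p = 0.018). Without the IL3 pair in the fit, the SE was 0.11. With IL3, Cdkn1b was 1.54-fold lower on the treated array, and 28 of 6674 genes had a lower ratio. Both IL3 signals are near the floor, and no repeat exists for that pair. The values come from 1 probe set, since the other was below the floor on all arrays, with signals of 1.39 to 7.50. When both were averaged, the log2 change was 0.61, because the dim probe set enters at the floor.

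Cdkn1a encodes p21, an inhibitor of CDK2 that is also known to help assemble cyclin D with CDK4. Untreated and treated signals were 851 and 380.1 in ETV6-PDGFRB, 908 and 444 in FIP1L1-PDGFRA, and 654 and 688 in IL3 cells. The untreated fusion arrays were the highest and the treated fusion arrays the lowest, with the IL3 arrays between them. The limma log2 change was -1.10 ± 0.09 (SE, adjusted p = 0.00449), rank 95 of 6808 by p. A second probe set went from 264 to 97.9 and from 261 to 133 in the fusion lines and from 177 to 171 in the IL3 pair, and it fell as well when every probe set was fitted as its own row (log2 change -1.20, limma adjusted p = 0.0107), a fit in which 21% of 10912 probe sets were called.

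**Figure D1:**
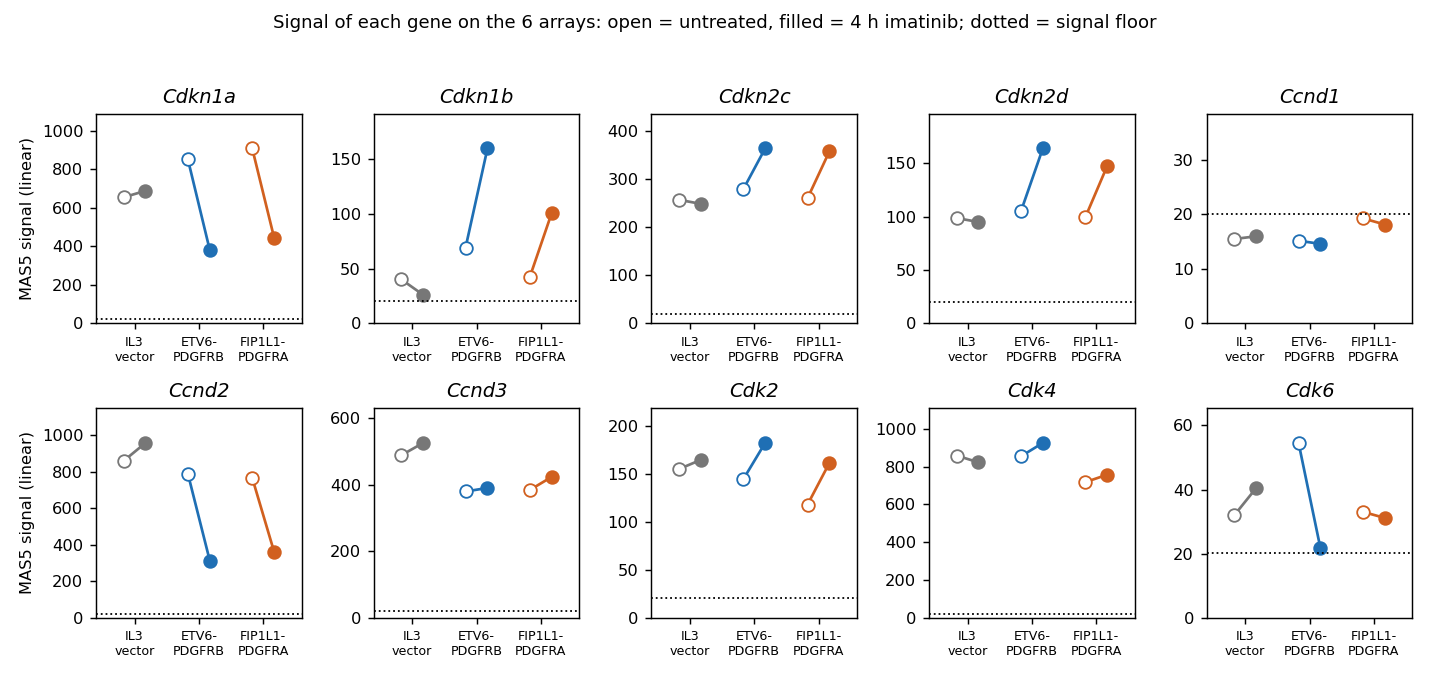
Linear MAS5 signal (vertical axis, from 0) of the representative probe set of each of the 10 genes in the 3 lines, with open points for untreated and filled points for imatinib arrays and a dotted line at the floor of 20.1. Cdkn1a and Ccnd2 are lower and Cdkn1b, Cdkn2c, Cdkn2d and Cdk2 higher in both treated fusion lines, and all 6 Ccnd1 points lie under the floor.

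Both INK4 inhibitors rose, by less than 2-fold. Cdkn2d, which encodes p19, was 105 untreated and 164 treated in ETV6-PDGFRB cells, 99.3 and 147 in FIP1L1-PDGFRA cells, and 98.7 and 95.1 in the IL3 pair. The untreated fusion arrays and both IL3 arrays lay within 95.1 to 105, below both treated fusion arrays. The log2 change was 0.61 ± 0.09 (SE, limma adjusted p = 0.012). Cdkn2c, which encodes p18, was 279 untreated and 364 treated in ETV6-PDGFRB cells, 260.3 and 358 in FIP1L1-PDGFRA cells, and 257 and 248 in the IL3 pair. Here too both treated fusion arrays lay above the other 4. Its log2 change was 0.42 ± 0.09 (SE, limma adjusted p = 0.0263). That call was lost with scaling to the hybridization control probe sets (log2 change 0.19, adjusted p = 0.152) and without the IL3 pair (adjusted p = 0.0741), whereas the call of Cdkn2d held in both.
The promoter window of Cdkn2d is shown as that of the INK4 gene with the larger change (chr9:21291160-21291459, minus strand, with GC and CCAAT boxes in capitals).
Cdkn2d: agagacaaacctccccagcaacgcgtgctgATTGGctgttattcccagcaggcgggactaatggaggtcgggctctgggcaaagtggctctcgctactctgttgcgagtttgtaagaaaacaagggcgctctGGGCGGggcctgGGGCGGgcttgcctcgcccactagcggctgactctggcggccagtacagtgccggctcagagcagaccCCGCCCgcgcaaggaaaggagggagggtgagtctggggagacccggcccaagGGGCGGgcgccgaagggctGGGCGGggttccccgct
It holds 5 GC boxes and 1 CCAAT box and, like the windows above, no match to either the STAT or the FOXO motif.

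Among D-type cyclins, which couple growth factor signals to CDK4 and CDK6, Ccnd2 fell, Ccnd3 did not pass the test and Ccnd1 was not measurable. Without and with imatinib, Ccnd2 was 788 and 312 in ETV6-PDGFRB, 765 and 361 in FIP1L1-PDGFRA, and 858 and 957 in IL3 cells. Both treated fusion arrays lay below the other 4. It was 2.52-fold lower in the ETV6-PDGFRB line and 2.12-fold lower in the FIP1L1-PDGFRA line, and the limma log2 change was -1.21 ± 0.11 (SE, adjusted p = 0.00542).

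Ccnd2 has 7 probe sets, 5 of them above the floor on all arrays. Those 5 share the gene and the RNA, so they check the probes and not the biology. Fitted as separate rows, 6 of the 7 fell, with log2 changes as low as -1.50. For 1 of these 6 both treated fusion signals were below the floor and entered the fit at it. The exception had signals of 6.11 to 25.6 and exceeded the floor on 3 arrays only, none of them treated fusion arrays. With IL3, the 5 bright probe sets had log2 ratios between -0.02 and 0.28.

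**Figure D2:**
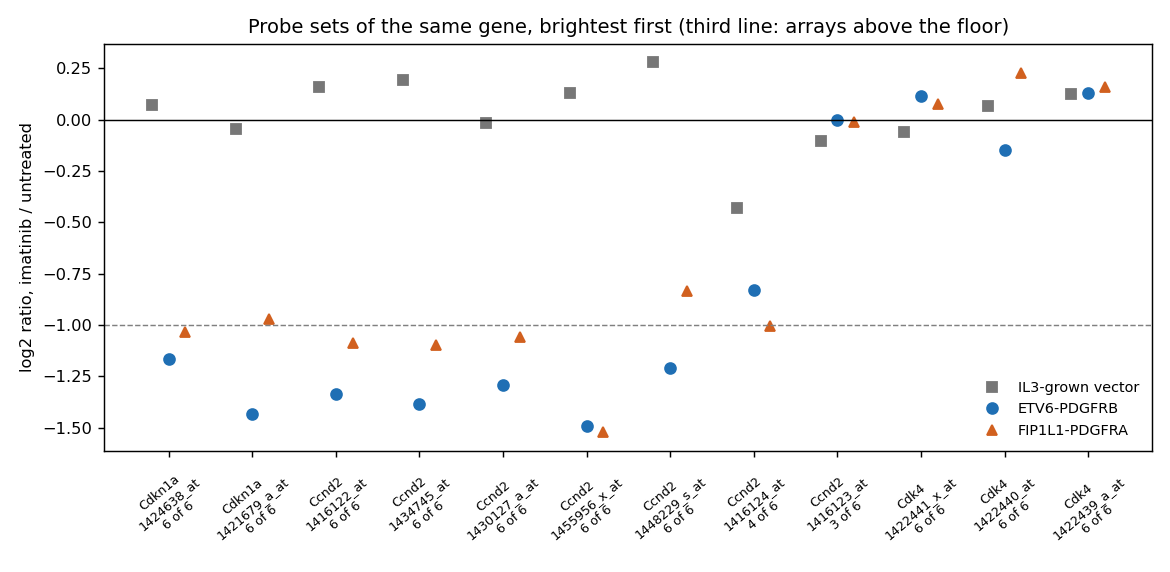
Log2 ratio of imatinib over untreated signal (vertical axis) for each probe set of Cdkn1a, Ccnd2 and Cdk4 above the floor on at least 1 array, in the 3 lines, with signals below the floor set to it and a dashed line at 2-fold lower. Both Cdkn1a probe sets and the 5 bright Ccnd2 probe sets lie between -0.84 and -1.52 in the fusion lines, while the Cdk4 probe sets lie between -0.15 and 0.23.

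Ccnd3 differed more between lines than with the drug. It was 379.7 and 390.4 in ETV6-PDGFRB cells, 384 and 424 in FIP1L1-PDGFRA cells, and 489 and 526 in the IL3 pair, each value given before and after imatinib. All 4 fusion arrays lay below both IL3 arrays. The log2 change with the drug was 0.09 ± 0.09 (SE, limma adjusted p = 0.498), and it was -0.14 with hybridization control scaling. Ccnd1 has 3 probe sets. The representative one had signals of 14.6 to 19.3, below the floor on all arrays. Another exceeded the floor on 1 array, the treated FIP1L1-PDGFRA array, at 22.3, so no ratio is given.

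Of the G1 kinases, Cdk2 rose and Cdk4 and Cdk6 did not pass. Cdk2, the partner of cyclins E and A, was 144 untreated and 182 treated in ETV6-PDGFRB cells, 118 and 161 in FIP1L1-PDGFRA cells, and 155 and 164 in the IL3 pair. The untreated fusion arrays were the 2 lowest, and the treated FIP1L1-PDGFRA array lay between the IL3 arrays. The log2 change was 0.39 ± 0.09 (SE, limma adjusted p = 0.0353). The call was lost in several settings, among them hybridization control scaling (log2 change 0.17, adjusted p = 0.21) and the fit without the IL3 pair (adjusted p = 0.0866).

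Cdk4, the main partner of D-type cyclins, was 855 and 926 in ETV6-PDGFRB cells, 718 and 757 in FIP1L1-PDGFRA cells, and 859 and 823 in the IL3 pair. On this representative probe set no pair differed by more than 1.08-fold, and the FIP1L1-PDGFRA arrays were the 2 lowest. The log2 change was 0.10 ± 0.09 (SE, limma adjusted p = 0.438), and it was -0.13 with hybridization control scaling. None of the 3 Cdk4 probe sets passed, at log2 changes of 0.04 to 0.14. The brightest one, the representative, bears the x suffix, which marks probes that may also match other transcripts. On a dimmer one the ETV6-PDGFRB signals were 601 untreated and 543 treated, opposite in direction to the representative. There the FIP1L1-PDGFRA signals were 474 and 554, against 521 and 545 with IL3.
The promoter window of Cdk4 is shown because MYC, which binds E-boxes (CACGTG, in capitals), is known in human cells as an activator of CDK4, and Myc was among the genes that fell (chr10:127063285-127063584, plus strand).
Cdk4: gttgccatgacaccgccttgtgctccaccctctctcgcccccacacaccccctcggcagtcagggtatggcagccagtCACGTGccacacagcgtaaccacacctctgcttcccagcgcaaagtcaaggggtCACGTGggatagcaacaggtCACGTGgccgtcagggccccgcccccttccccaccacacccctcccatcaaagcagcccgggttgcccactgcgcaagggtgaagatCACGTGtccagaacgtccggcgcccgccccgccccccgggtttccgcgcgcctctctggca
It holds 4 E-boxes. A window with at least 1 E-box is found in 7.15% of all windows, and 8 of 32851 hold 4 or more. Among the 11 windows of the genes described here 3 hold an E-box: those of Cdk4 and Cdk6 and the downstream window of Cdkn2c. Myc, a transcription factor of growth, went from 656 to 232 and from 681 to 179.8 in the fusion lines. Whether MYC acts on any of these genes in these cells was not tested.

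Cdk6, the other partner of D-type cyclins, had the widest gap between the fusion lines' ratios among the 9 measured genes. Its signal was 54.5 untreated and 21.7 treated in ETV6-PDGFRB cells, a 2.52-fold lower level, and 33.0 and 31.1 in FIP1L1-PDGFRA cells. The IL3 arrays had 32.0 and 40.4. The untreated ETV6-PDGFRB array was the highest of the 6 and the treated one the lowest, just above the floor. The limma log2 change was -0.71 ± 0.31 (SE, adjusted p = 0.146). These signals come from 1 probe set, and the difference between the lines was not tested.

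Over the 9 genes above the floor, 4 rose, 2 fell and 3 did not pass. In the same limma fit 25.8% of all 6808 genes were called, 13.5% rising and 12.4% falling. The median log2 change was 0.10 for the 9 genes and 0.04 for all genes. With hybridization control scaling, which shifts every log2 ratio by -0.18 in the ETV6-PDGFRB line and -0.27 in the FIP1L1-PDGFRA line, 395 genes of the series rose and 1880 fell, against 916 and 841 as reported. Scaling to the plain mean gave 717 and 1006. Fits on a single fusion line with the IL3 pair called 0 genes of the series, with 2167 without the ETV6-PDGFRB pair and 2334 without the FIP1L1-PDGFRA pair at an unadjusted p under 0.05. With no filter on dim genes, where many values sit at the floor, 0 of the 10 genes were called by limma.

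Counted by line, 4 of 9 genes passed 2-fold with imatinib in ETV6-PDGFRB cells, against 4.47% of all measured genes. Cdkn1b was higher (background 1.61%), and Cdkn1a, Ccnd2 and Cdk6 were lower (2.86%). In FIP1L1-PDGFRA cells 3 of 9 passed, against 5.16%: Cdkn1b higher (2.19%), and Cdkn1a and Ccnd2 lower (2.97%). Cdkn1b was no longer past 2-fold in FIP1L1-PDGFRA cells with log2(signal + 16) or hybridization control scaling, nor in either fusion line with probe sets averaged, where Ccnd2 also dropped out in FIP1L1-PDGFRA cells. Cdk6 was no longer past it in ETV6-PDGFRB cells with log2(signal + 16) or a floor at the 60th percentile. Between the IL3 arrays 0 of 9 passed, against 0.135%, with log2 ratios from -0.63 (Cdkn1b) to 0.34 (Cdk6). These counts carry no test. Erythroid markers were also higher on both treated fusion arrays: with 3 of 4 above the floor on all arrays and Hba-a1 below it on all, their summed signal was 792 and 492 untreated and 1665 and 1572 treated, against 614 and 588 with IL3. Mast cell and basophil markers, 2 of 6 above the floor on all arrays, summed to 1449 and 463 untreated and 1930 and 834 treated, against 947 and 775. Pro-B and B markers, 2 of 11 above the floor on all arrays, summed to 144 and 116 untreated and 197 and 173 treated, against 127 and 117. Of these, Cd79b was 67.5 and 45.7 untreated and 121 and 78.4 treated, against 49.6 and 45.3 with IL3. The myeloid sum was not higher with the drug in the fusion lines. With 2 of 6 above the floor on all arrays, it was 116 and 324 untreated and 114 and 226 treated, against 345 and 357. Its largest part was Adgre1, at 61.4 and 270 untreated and 46.2 and 174 treated, against 284 and 305 with IL3. Csf1r, the other one above the floor on all arrays, was 31.1 and 32.3 untreated and 34.0 and 32.7 treated, against 30.9 and 32.8. The part of any of these in the results was not tested.

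**Figure D3:**
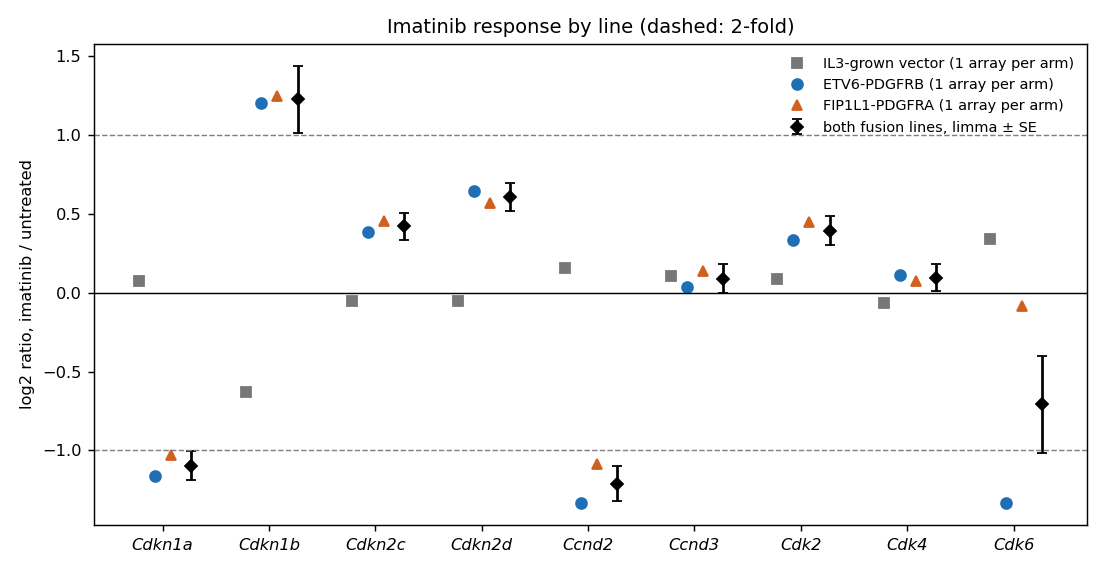
Log2 ratio of imatinib over untreated signal (vertical axis) for the 9 genes above the floor, by line (1 array per arm), with the limma estimate for both fusion lines and its SE as black diamonds and dashed lines at 2-fold. Cdkn1b is the gene with both fusion lines above 1 (1.21 and 1.25) and the IL3 pair below 0 (-0.63), and Cdk6 is the gene whose fusion lines lie apart (-1.33 and -0.09).

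Whether the drug response differed between fusion and IL3 cells was tested as an interaction in limma. None of the 9 genes passed, and 0% of the 6808 genes did, with 17.3% at an unadjusted p under 0.05. That fit has 1 residual and 3.33 prior degrees of freedom. A gene's own spread in it is the gap between the fusion lines' responses, and the IL3 pair adds none. A lack of calls therefore does not show equal responses. The largest difference was that of Cdkn1b, 1.85 ± 0.19 on the log2 scale (SE, adjusted p = 0.139), followed by Ccnd2 at -1.37 ± 0.21 and Cdkn1a at -1.17 ± 0.20 (both adjusted p = 0.163). With log2(signal + 16) in place of the floor these 3 genes passed. The other 6 genes had adjusted p of 0.224 (Cdkn2d) to 0.972 (Ccnd3).

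Without the drug, the 9 measured genes were within 2-fold of IL3-grown cells in both fusion lines, as were most genes of the series. For ETV6-PDGFRB 0 of 9 genes passed 2-fold against 2.97% of all genes, and for FIP1L1-PDGFRA 0 of 9 against 2.14%. These comparisons share the untreated IL3 array. Cdkn1a was 1.30-fold and 1.39-fold higher in the fusion lines, and Ccnd3 was 1.29-fold and 1.27-fold lower. Cdkn1b was 1.72-fold higher in ETV6-PDGFRB cells and 1.06-fold higher in FIP1L1-PDGFRA cells, and Cdk6 was 1.71-fold and 1.03-fold higher. Selection and growth without IL3 cannot be told apart from the fusion gene here.

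After imatinib, Cdkn1b and Ccnd2 were the genes past 2-fold against treated IL3 cells in both lines, 2 of 9 each time. The shares of all genes were 8.15% for ETV6-PDGFRB (4.43% higher, 3.72% lower) and 4.62% for FIP1L1-PDGFRA (2.23% higher, 2.38% lower). Cdkn1b was 6.14-fold and 3.88-fold higher, and both values use the low IL3 array of 26.0. Against the untreated IL3 array of 40.2 the treated fusion signals of 159.9 and 101 were also higher. Ccnd2 was 3.06-fold and 2.65-fold lower. Between the fusion lines 0 of 9 genes passed 2-fold without the drug, against 1.62%, and 0 of 9 with it, against 1.27%. Cdkn1b was 1.63-fold higher in ETV6-PDGFRB cells without and 1.58-fold higher with imatinib.

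Around these genes, 36 of 48 listed symbols of partners and regulators were tested. Of these, 11 rose, 4 fell and 21 did not pass, against 13.5% rising and 12.4% falling among all 6808 genes of the same fit. These lists were chosen with earlier results known, and their counts carry no test. Cdkn1c, Cdkn2a and Cdkn2b, the remaining CDK inhibitors, were below the floor on all arrays. Among E and A cyclins and activators of CDKs, 2 of 8 rose and 1 fell. Ccne2, a cyclin E that activates CDK2, rose by 0.98 ± 0.22 on the log2 scale (SE, limma adjusted p = 0.0337), with signals of 32.6 and 89.3 in ETV6-PDGFRB, 50.3 and 71.9 in FIP1L1-PDGFRA, and 66.7 and 66.9 in IL3 cells. Ccna2, the S-phase cyclin, rose by 0.40 ± 0.09 (adjusted p = 0.0305). Cdc25a, a phosphatase that activates CDK2, fell by 0.52 ± 0.11 on the log2 scale (adjusted p = 0.0284).

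Among retinoblastoma relatives and E2F factors, 5 of 10 rose, 1 fell and 4 did not pass, with a median log2 change of 0.26. Rbl2, which encodes p130, the pocket protein of resting cells, rose by 1.04 ± 0.12 (SE, limma adjusted p = 0.00801), from 93.1 to 168 and from 64.4 to 151. Rbl1, which encodes p107, rose by 0.64 ± 0.09 (adjusted p = 0.0131), and the repressor E2f8 rose by 1.48 ± 0.11 (adjusted p = 0.00383). With IL3, Rbl2 was 83.1 and 78.6. The others called, named here after their values were seen, were E2f1 and Rb1, which rose, and E2f5, which fell, with signals below the floor on both treated fusion arrays. E2f1, an activator of S-phase genes, rose by 1.31 ± 0.22 (limma adjusted p = 0.0165), with signals of 24.8 and 62.1 in ETV6-PDGFRB and 27.3 and 67.3 in FIP1L1-PDGFRA cells. It was also higher on the treated IL3 array, at 53.3 against 34.0. Of 12 genes for turnover of inhibitors and cyclins, 1 rose, 1 fell and 10 did not pass. Dtl, part of a ubiquitin ligase that removes p21 in S phase, rose by 1.15 ± 0.13 (adjusted p = 0.00801), and Fbxw7, which targets cyclin E, fell by 0.59 ± 0.14 on the log2 scale (adjusted p = 0.0363). Skp2, the ligase subunit for p27, did not pass (log2 change 0.14 ± 0.11, adjusted p = 0.407), with signals of 67.9 to 88.5 over the 6 arrays.

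Of 6 upstream factors tested, 3 rose, 1 fell and 2 did not pass. Foxo3, an activator of Cdkn1b, rose by 0.73 ± 0.10 on the log2 scale (SE, limma adjusted p = 0.0103), from 152 to 238 and from 109 to 191. Stat5a rose by 0.68 ± 0.12 (adjusted p = 0.0179), Stat5b, named after its value was seen, rose by 0.71 ± 0.15 (adjusted p = 0.0267), and Myc fell by 1.71 ± 0.12 on the log2 scale (adjusted p = 0.00383). Foxo1 and Foxo4 were below the floor on all arrays.

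**Figure D4:**
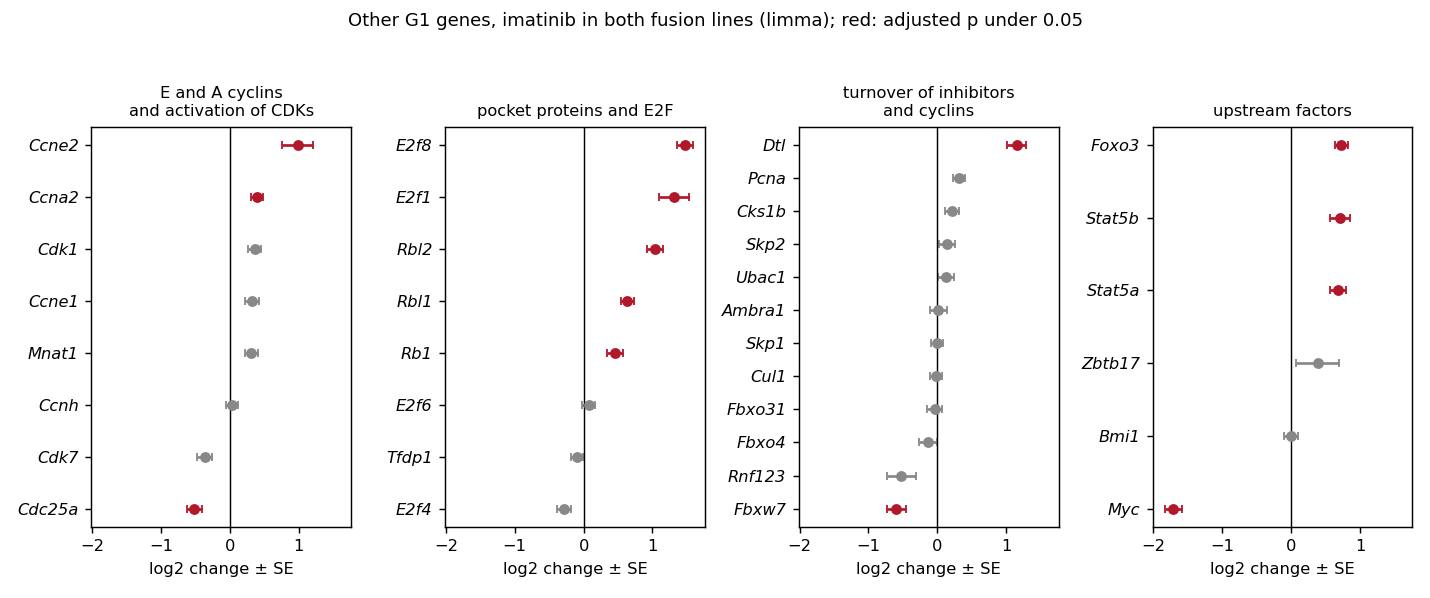
Limma log2 change with imatinib in both fusion lines (horizontal axis, with SE) for other G1 genes whose signal exceeded the floor on each of the 4 fusion arrays, in 4 panels by role, with genes at an adjusted p under 0.05 in red. E2f8 (1.48), E2f1 (1.31), Dtl (1.15) and Rbl2 (1.04) lie on the right and Myc (-1.71) on the left, while most turnover genes lie near 0.

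By the pattern over the 6 arrays, the genes most like Cdkn1a were Max (Pearson r = 0.996), Ifrd1 (0.994) and Pim2 (0.993), among 6164 others above the floor on all arrays. Max, the partner of MYC, was 301 and 176 in ETV6-PDGFRB, 324 and 201 in FIP1L1-PDGFRA, and 267 and 265 in IL3 cells. The genes most like Ccnd2 were Xpo4, Sinhcaf and Slc20a1 (r = 0.997 each). Those most like Cdkn1b were Purg (0.994), Crot (0.994) and Prkra (0.991). Purg was 87.1 and 128 in ETV6-PDGFRB, 74.8 and 105 in FIP1L1-PDGFRA, and 67.8 and 53.7 in IL3 cells; the ranking used all 6 arrays, the treated IL3 array included. The 6 arrays share lines and treatment, so these are descriptions with no p.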

How the data were processed

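Labelled RNA of 6 Ba/F3 samples, 5 µg each, was hybridised to Affymetrix mouse arrays. The deposited values are linear intensity signals, and the submitters' processing notes name GCOS 1.4.0 and MAS5 as the tools of the authors. No detection calls were used. Each array's mean, with 2% trimmed from both tails, was 100.0. Gene names came from the platform annotation (20393 with 1 symbol, 691 with several, 1606 with none); 64 control probe sets, 13 with 1 symbol and 51 with none, were left out, which left 20380, and 0 symbols changed in the RefSeq table of GRCm38.p6. The floor, the representative probe set, the 2-fold count and the fit are defined in the text above. The fit used limma 3.58.1 (R 4.3.3) with eBayes on log2 signals of genes that exceeded the floor on 2 or more arrays, with 2 residual and 3.10 prior degrees of freedom. Its code was checked on simulated data. Tables used Python 3.11.15, numpy 2.4.6 and pandas 2.3.3. Precision is limited by the number of arrays.

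All 10 genes are named. From each list of other G1 genes, up to 3 with the lowest adjusted p under 0.05 are named, besides Skp2, genes below the floor and those marked as named later, and 3 most similar genes each for Cdkn1a, Cdkn1b and Ccnd2. The genes and lists were chosen with earlier results of these data known. Alternatives were the floor percentile, a pseudocount, 3 scalings, probe set averaging or separation, the filter, a variance trend and leaving out each line. Promoter windows are from RefSeq, for 8 of the 10 genes (11 windows); Ccnd1 and Ccnd2 had none in the table used.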

Additional observations from a re-analysis of the deposited data

Results flagged for a closer look

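For 7 of the 9 measured genes, both fusion lines moved one way with imatinib and the IL3 pair the other way, as did 36.9% of the 6497 genes measured in all 3 pairs. For Cdkn1a, Cdkn2c, Cdkn2d and Cdk4 the IL3 ratio was near 0, so its sign carries little weight. The mean log2 ratio of the fusion lines was -1.10 for Cdkn1a, 1.23 for Cdkn1b, 0.42 for Cdkn2c, 0.61 for Cdkn2d, -1.21 for Ccnd2, 0.10 for Cdk4 and -0.71 for Cdk6. The IL3 pair had 0.07, -0.63, -0.05, -0.05, 0.16, -0.06 and 0.34 in the same order. The interaction in limma, which tests this difference with 1 residual degree of freedom, passed for none of them (lowest adjusted p = 0.139, Cdkn1b). All IL3 values except that of Cdkn1b lay inside the range of the middle 95% of genes in that pair, -0.38 to 0.42.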

How the results depend on the processing

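Directions of the 9 genes in the limma fit held in every alternative except hybridization control scaling, where Ccnd3 (-0.14) and Cdk4 (-0.13) reversed, neither passing. Cdk6 was not tested with the 60th percentile floor. Of 116 values over genes and settings, 90 kept direction and side of the threshold, 24 lost the call and 2 reversed. The 90 include values of Ccnd3, Cdk4 and Cdk6, which were called in no setting and had no call to lose. With both fusion lines in the fit, Cdk2 kept its call in 6 of 11 alternatives and Cdkn2c in 8. Cdkn1a, Cdkn1b, Cdkn2d and Ccnd2 each kept theirs in 10. The 6 called genes became 0 without the filter on dim genes, and leaving out a line gave 0 to 4 called genes. The interaction, with 0 called, gave 3 with log2(signal + 16), Cdkn1a, Cdkn1b and Ccnd2; over the series that setting called 103 higher and 193 lower genes, the 60th percentile floor 10 and a variance trend 17, all lower. Over the series, calls rising and falling (916 and 841) became 588 and 626 with the 40th percentile floor, 418 and 471 without the IL3 pair, and 48 and 59 without the filter. Genes past 2-fold in FIP1L1-PDGFRA cells became 1 instead of 3 when probe sets were averaged, where dim probe sets enter at the floor. The cause of the other differences was not tested. No paired analysis was possible beyond the line block because each line and treatment has 1 array. With 1 array per group, culture-to-culture spread is unknown, and signals near the floor (Cdk6, Cdkn1b) are the least certain.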
